A study of Mus musculus with 20 samples.

Results

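The enzymes described are the UDP-glucuronosyltransferases (UGT), the soluble glutathione S-transferases (GST) and the sulfotransferases (SULT), 64 of the 50559 genes counted. They were taken by gene symbol alone, as the Ugt1, Ugt2 and Ugt3 genes, the Gst genes of the alpha, kappa, mu, omega, pi, theta and zeta classes, and the numbered Sult genes, without pseudogenes. There were 21 UGT, 22 GST and 21 SULT genes. RNA sequencing was performed on 20 liver or tumor samples of female C57BL/6J wild type mice fasted for 5 h before collection, with plasmids injected at 6 to 8 weeks of age. There were 5 control livers and 15 tumors, 5 each driven by Aldafermin + MYC, by FGF19 + MYC and by sgTrp53 + MYC. The labels call the livers healthy and untreated, while the study's text describes them as injected with a control RFP plasmid, so whether the comparison with liver includes the injection itself is not settled here. FGF19 is a human gut hormone that lowers bile acid synthesis in the liver, and Aldafermin is its engineered analog with a changed N-terminus. Tumors arose after hydrodynamic injection of Sleeping Beauty transposon plasmids, which reach a small share of hepatocytes. All 3 tumor groups carry the MYC plasmid with its EF1a promoter, and the third carries Cas9 with a guide against Trp53 in place of the hormone. Each tumor was a snap-frozen nodule, and the age of each tumor at collection is not given in the sources used here. The sgTrp53 + MYC libraries came in a separate table, so table and group cannot be told apart in any comparison with them. The study states that the sequenced tumors came from separate mice and that all replicates were biological.

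Conjugation is the phase of drug and hormone metabolism in which a polar group is joined to a substrate so that it can leave the cell. UGT enzymes transfer glucuronic acid to bilirubin, steroids and drugs in the endoplasmic reticulum, GST enzymes join glutathione to electrophiles in the cytosol, and SULT enzymes transfer sulfate to steroids, bile acids, phenols and amines. Hepatocytes are the main site of all 3 reactions, and factors such as HNF4A, CAR, PXR, the aryl hydrocarbon receptor and NRF2 are known to act on their genes.

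RefSeq promoter windows on GRCm38.p6 were found for 56 of the 64 genes (67 windows, from 250 bases before to 50 after each start) and searched on both strands. GCGTG, the core of the element bound by the aryl hydrocarbon receptor, was in 19.4% of these windows and in 32.39% of all 32851 windows. A match is a description of letters and not a bound site, and near-identical copies in these families share sequence, so the windows are not independent. The 250 bases before the start are shown for the pi class genes Gstp1 and Gstp3, the neighbors whose levels parted in the tumors. Capitals mark GCGTG or its complement CACGC. The Gstp1 window lies at chr19:4037913-4038162, minus strand and the Gstp3 window at chr19:4059448-4059697, minus strand.
Gstp1: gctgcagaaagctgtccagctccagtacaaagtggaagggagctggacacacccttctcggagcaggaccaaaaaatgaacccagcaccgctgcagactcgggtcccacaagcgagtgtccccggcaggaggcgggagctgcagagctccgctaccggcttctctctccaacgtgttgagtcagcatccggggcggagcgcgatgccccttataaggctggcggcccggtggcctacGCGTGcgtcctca
Gstp3: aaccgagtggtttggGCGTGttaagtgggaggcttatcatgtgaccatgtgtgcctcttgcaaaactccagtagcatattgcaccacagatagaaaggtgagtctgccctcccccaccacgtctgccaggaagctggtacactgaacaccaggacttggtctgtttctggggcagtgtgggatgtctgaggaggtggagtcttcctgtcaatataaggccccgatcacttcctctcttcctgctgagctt
In Gstp1 the aryl hydrocarbon receptor core lay 13 bases before the start, and in Gstp3 it lay at 235.

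Libraries held 18004977 to 66354724 reads assigned to genes. Levels are given as CPM (counts scaled to library size) on the TMM scale, which corrects for composition, and TMM factors were 0.615 to 0.682 in livers and 0.997 to 1.31 in tumors. Hepatocyte markers were found in all samples, with a summed level over 8 genes of 184257 to 234852 CPM in livers and 3137 to 29958 CPM in tumors, and 0 of the 8 genes rose and 8 fell against liver in each comparison. The sum was highest within their groups in Aldafermin + MYC replicate 4, FGF19 + MYC replicate 5 and sgTrp53 + MYC replicate 1. Cholangiocyte markers summed to 776 CPM in sgTrp53 + MYC replicate 2, against at most 125 CPM in any library of the other groups. Trp53 was at 18.7 to 79.6 CPM in sgTrp53 + MYC tumors, 90.7 to 176 CPM in Aldafermin + MYC tumors, 109 to 155 CPM in FGF19 + MYC tumors and 28.8 to 36.4 CPM in livers, and a guide that cuts DNA need not remove the transcript. In bulk samples, fewer cells of a type and less RNA per cell cannot be told apart.

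Control livers held far more RNA of all 3 enzyme families than any tumor. Summed UGT levels were 4723 ± 704 CPM (SD, n = 5) in liver, 289 ± 133 CPM in Aldafermin + MYC, 355 ± 134 CPM in FGF19 + MYC and 297 ± 145 CPM in sgTrp53 + MYC tumors. Tumors therefore held 6.11%, 7.53% and 6.28% of the liver mean in that order. Summed GST levels were 8308 ± 946 CPM in liver and 1831 ± 262, 1635 ± 272 and 1651 ± 290 CPM in the tumors, 22.03%, 19.7% and 19.9% of the liver mean. Summed SULT levels were 1995 ± 677 CPM in liver and 89.0 ± 54.2, 138 ± 81.0 and 197 ± 95.6 CPM in the tumors, 4.46%, 6.94% and 9.86% of the liver mean. The tumor and liver libraries did not overlap for any of the 3 sums. GST transcripts kept the largest share of their liver level in each tumor group. As a share of all gene counts, without TMM, UGT genes held 0.303% in liver and 0.0333%, 0.0413% and 0.0343% in the tumors. GST genes held 0.533% and 0.210%, 0.188% and 0.193%, and SULT genes 0.127% and 0.0102%, 0.0158% and 0.0228%. On that scale tumors kept more of the liver level than the percentages above.

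**Figure D1:**
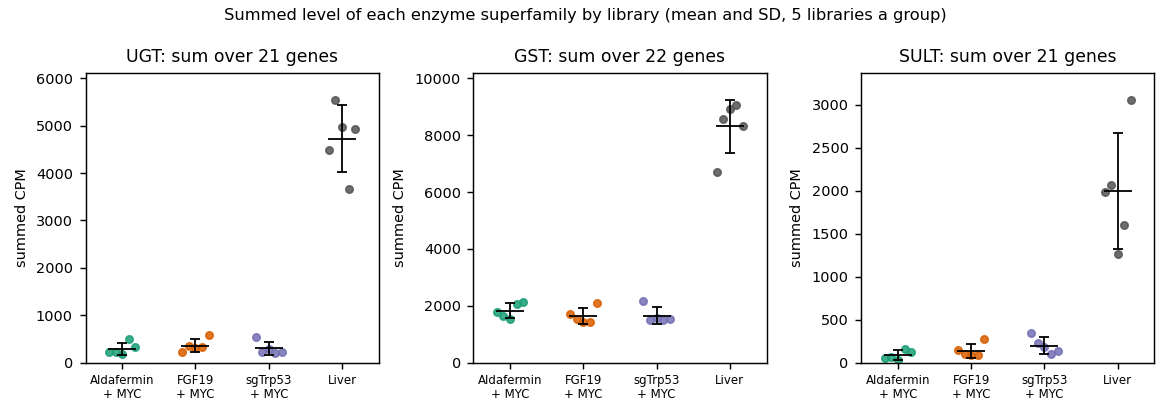
Summed CPM (TMM scale, linear axis from 0) of UGT, GST and SULT genes in each of the 20 libraries by group, with points for libraries and the mean ± SD. Liver means of 4723, 8308 and 1995 CPM stand above every tumor library, and the GST panel has the smallest gap.

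Of the 64 genes, 45 reached 1 CPM in at least 5 libraries and were tested (15 UGT, 19 GST, 11 SULT). The test was edgeR's quasi-likelihood test with Benjamini-Hochberg adjustment over 14333 genes and a threshold of 0.05. The other 19 were low: 5 had 0 counts in all libraries (Sult1c1, Ugt1a10, Ugt1a2, Ugt2a1 and Ugt2a2), and the highest liver means among the rest were 3.74 CPM for Sult3a2, 2.27 CPM for Sult2a7 and 1.7 CPM for Ugt2b38. In the 10 pooled FGF19/Aldafermin + MYC tumors against liver, 3 of the 45 rose and 37 fell, a share of 82.2% lower beside 34.5% of all genes tested (39.2% of all genes were higher and 73.7% changed either way). In sgTrp53 + MYC tumors against liver, 3 rose and 38 fell, 84.4% lower beside 33.0% of all genes (36.9% higher, 69.9% either way). Over the 45 genes the median log2 fold change came to -3.24 and -3.92, and over all genes tested to 0.10 and 0.07. Both comparisons use the same 5 livers. In 33 of the 45 genes all 10 pooled tumors lay below all livers, as in 25.7% of all genes tested, and in 35 of the 45 all sgTrp53 + MYC tumors did, as in 27.5% of all.

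The filter itself bears on these counts. Sult2a3, Sult2a5, Sult3a1, Sult5a1, Ugt1a5 and Ugt2b37 reached 1 CPM in under 5 tumor libraries and so could not have been tested without liver. Among the other 39 tested genes, 3 rose and 31 fell in the pooled tumors, and 3 rose and 33 fell in sgTrp53 + MYC tumors. Transcripts of close relatives share bases, and 25 of the 64 genes share over 10% of their 50-base words with another gene. The 28 tested genes that share at most 10% gave 1 higher and 23 lower in either comparison.

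**Figure D2:**
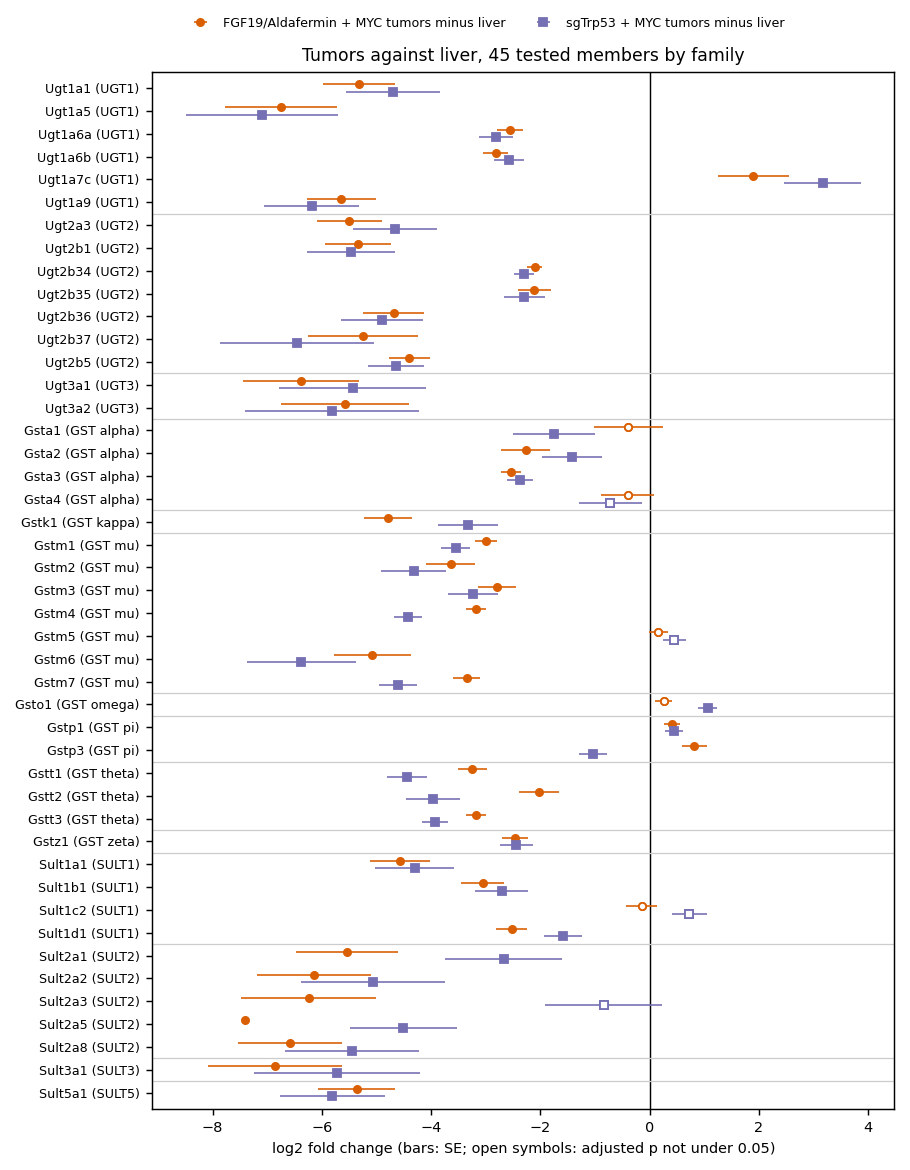
Log2 fold change ± SE of the 45 tested genes against liver, for pooled FGF19/Aldafermin + MYC tumors and for sgTrp53 + MYC tumors, ordered within superfamilies. Open symbols mark adjusted p not under 0.05, Sult2a5 has no SE for the pooled tumors, and only Gstp1, Gstp3, Gsto1 and Ugt1a7c have filled symbols to the right of 0.

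UGT genes fell nearly as a block. Of 15 tested, 1 rose and 14 fell in each comparison with liver, with a median log2 fold change of -5.24 in the pooled tumors and -4.70 in sgTrp53 + MYC tumors. Ugt1a5 and Ugt2b37 are among the 14 and would not have been tested without liver. Ugt1a1 (chr1:88139679-88147724, plus strand, GRCm39) encodes the enzyme that conjugates bilirubin. It read 619, 700.0, 575, 394 and 522 CPM in livers 1 to 5. In tumors it read 1.14, 2.16, 2.98, 30.8 and 9.13 CPM in Aldafermin + MYC, 8.53, 15.6, 6.86, 10.2 and 66.0 CPM in FGF19 + MYC and 33.1, 22.6, 32.9, 6.46 and 13.0 CPM in sgTrp53 + MYC replicates 1 to 5. Every tumor lay below every liver, and the highest tumor value, in FGF19 + MYC replicate 5, was still far under the lowest liver. The log2 fold change was -5.32 ± 0.66 in the pooled tumors (edgeR adjusted p = 5.51e-07) and -4.70 ± 0.86 in sgTrp53 + MYC tumors (adjusted p = 7.31e-05).

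The mouse Ugt1a genes splice separate opening exons to the same downstream exons, and only 28.32% of the bases of Ugt1a1 are its own. Reads in the common exons can be counted as ambiguous, and the share of ambiguous reads was 11.1% to 14.6% in sgTrp53 + MYC libraries and 3.03% to 6.30% in the other 15, whose part in the Ugt1a values was not tested. Ugt1a5, a little studied relative, had the largest drop of the tested UGT genes (log2 fold change -6.75 ± 1.02 and -7.09 ± 1.39). It reached 1 CPM in 4 tumor libraries and passed the filter only through the livers, where it is high, so this place depends on the filter. It read 129, 145, 185, 100.002 and 139.9 CPM in livers, 0, 0.0743, 0.160, 4.91 and 0 CPM in Aldafermin + MYC, 0.223, 0.218, 0.628, 0.557 and 7.12 CPM in FGF19 + MYC and 2.24, 0.167, 2.36, 0.0952 and 0.230 CPM in sgTrp53 + MYC replicates, with every tumor far below every liver. Ugt1a9, a phenol and drug conjugating enzyme, went from 73.8 ± 35.5 CPM in liver to 1.78, 1.22 and 1.02 CPM in Aldafermin + MYC, FGF19 + MYC and sgTrp53 + MYC tumors. The planar phenol enzymes Ugt1a6a and Ugt1a6b fell less, with log2 fold changes of -2.55 ± 0.24 and -2.82 ± 0.22 in the pooled tumors and -2.81 ± 0.31 and -2.58 ± 0.28 in sgTrp53 + MYC tumors.

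Ugt1a7c was the UGT gene that rose, from a very low level. It read 0, 0.0366, 0.441, 0 and 0.199 CPM in livers. The tumor values were 0.970, 0.347, 1.28, 0.269 and 0.448 CPM in Aldafermin + MYC, 0.557, 0.582, 0.359, 0.469 and 0.386 CPM in FGF19 + MYC and 1.55, 2.50, 0.725, 0.571 and 1.41 CPM in sgTrp53 + MYC replicates. The sgTrp53 + MYC tumors all lay above the livers, while liver replicate 3 overlapped the lower pooled tumors. Its log2 fold change was 1.90 ± 0.65 (adjusted p = 0.0124) and 3.17 ± 0.70 (adjusted p = 0.000455). These values rest on few reads, and 77.09% of the gene's 50-base words are shared with its neighbors.

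Among the 7 tested Ugt2 genes, which conjugate steroids, bile acids and many drugs, all fell in both comparisons. Ugt2b36 was at 808 ± 131 CPM in liver and at 26.6, 37.3 and 27.1 CPM in the 3 tumor groups. Ugt2b5 went from 798 ± 91.4 CPM to 34.4, 41.7 and 31.9 CPM, and Ugt2b1 and Ugt2a3 to 2.48% and 2.23% of their liver means in the pooled tumors. Ugt2b34 kept more. It read 670.2, 739.7, 738, 462 and 627 CPM in livers, 147, 132, 115, 167 and 176 CPM in Aldafermin + MYC, 113, 177, 172, 159.6 and 150.4 CPM in FGF19 + MYC and 178, 110.3, 123, 116 and 131 CPM in sgTrp53 + MYC replicates, with log2 fold changes of -2.10 ± 0.14 and -2.30 ± 0.18. Tumor values of Ugt2b34 lay close together and all below liver, and the gene held 51.0% of the summed UGT level in Aldafermin + MYC, 43.4% in FGF19 + MYC and 44.3% in sgTrp53 + MYC tumors. Ugt2b35, with log2 fold changes of -2.11 ± 0.30 and -2.29 ± 0.38, was the other Ugt2 gene above 10% of liver.

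Ugt3 enzymes use sugars other than glucuronic acid. Ugt3a2 (chr15:9276974-9315118, plus strand) read 659, 822, 600.5, 508 and 679 CPM in livers. Tumor levels were 0.606, 0, 1.86, 46.2 and 0.196 CPM in Aldafermin + MYC, 1.67, 13.7, 4.62, 8.59 and 67.2 CPM in FGF19 + MYC and 39.7, 3.47, 13.0, 1.13 and 0.996 CPM in sgTrp53 + MYC replicates. A single library in each group, the one with the highest hepatocyte marker sum, held most of its tumor signal. This gave a log2 fold change of -5.58 ± 1.17 (adjusted p = 0.000284) and -5.81 ± 1.59 (adjusted p = 0.00318). Ugt3a1 went from 49.3 to 97.4 CPM in liver to 0 to 5.02 CPM over the 15 tumors, with log2 fold changes of -6.38 ± 1.06 and -5.44 ± 1.34.

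GST genes were the most mixed family. Of 19 tested, 2 rose and 13 fell in the pooled tumors (median log2 fold change -2.53), and 2 rose and 15 fell in sgTrp53 + MYC tumors (median -3.23). The mu class included the gene with the highest level per kb of exon in liver. Gstm1 (chr3:107919380-107925380, minus strand), a broad conjugator of epoxides, read 2520, 3283, 3943, 3855 and 2555 CPM in livers. Among tumors, it stood at 386, 366, 381, 614 and 245 CPM in Aldafermin + MYC, 290.1, 404, 338, 375 and 674 CPM in FGF19 + MYC and 283, 253, 307, 315 and 219 CPM in sgTrp53 + MYC replicates. No tumor came near the lowest liver, and the log2 fold change was -2.99 ± 0.20 and -3.55 ± 0.26. Of 7 tested mu genes, 6 fell in each comparison. Gstm6 had the steepest drop (log2 fold change -5.07 ± 0.71 and -6.38 ± 1.00). It read 109, 152, 122, 161 and 132 CPM in livers, 1.26, 0.421, 1.62, 13.9 and 0.981 CPM in Aldafermin + MYC, 0.892, 3.53, 1.66, 2.34 and 13.9 CPM in FGF19 + MYC and 3.27, 0.683, 3.00, 0.680 and 0.444 CPM in sgTrp53 + MYC replicates, without overlap between tumors and liver. Gstm5 was the exception at 19.1 ± 3.26 CPM in liver and 25.7 ± 6.59, 17.8 ± 5.48 and 26.2 ± 2.75 CPM in tumors, with log2 fold changes of 0.16 ± 0.18 (adjusted p = 0.414) and 0.46 ± 0.20 (adjusted p = 0.0525), and it passed as higher in sgTrp53 + MYC tumors under 11 of 31 other settings.

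Alpha class genes, which also reduce lipid peroxides, split by member. Gsta3 fell from 1382 to 1951 CPM in liver to 199 to 399 CPM in the pooled and 226 to 514 CPM in the sgTrp53 + MYC tumors, with no overlap (log2 fold change -2.53 ± 0.19 and -2.36 ± 0.24). Gsta2 fell by 2.27 and 1.42 on the log2 scale, and its tumor range of 2.29 to 33.6 CPM met the lowest liver at 10.2 CPM. The call in sgTrp53 + MYC tumors was lost under 7 of 30 other settings, at -0.61 scaled by total counts, -1.14 without the filter on low counts, and -1.22 to -1.33 without liver replicate 3 or 4 or sgTrp53 + MYC replicate 3, 4 or 5. Gsta4, which clears the lipid aldehyde hydroxynonenal, passed neither test, with 55.5 to 114 CPM in liver and 7.77 to 149 CPM in tumors. Gsta1 stayed under 3 CPM in every library and shares 91.8% of its 50-base words with other alpha genes. Its log2 fold change in sgTrp53 + MYC tumors, -1.75 ± 0.75 (adjusted p = 0.0439), was lost under 17 of 29 other settings.

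Theta and zeta class genes fell in both comparisons. Gstt1, which acts on small halogenated compounds, went from 567 ± 53.5 CPM in liver to 60.3, 59.3 and 26.0 CPM in the tumor groups. Gstz1, which degrades tyrosine as maleylacetoacetate isomerase, went from 1143 ± 201 CPM to 225, 191 and 211 CPM, with log2 fold changes of -2.46 ± 0.24 and -2.44 ± 0.30. Gstk1 (chr6:42222830-42227386, plus strand), the mitochondrial and peroxisomal kappa enzyme, had the largest drop of the GST genes after Gstm6 in the pooled tumors. It read 134, 164, 129, 166 and 179 CPM in livers. The 3 tumor groups gave 1.87, 2.50, 1.97, 10.8 and 5.44 CPM in Aldafermin + MYC, 6.58, 5.09, 3.81, 3.78 and 15.8 CPM in FGF19 + MYC and 25.8, 24.1, 13.0, 4.42 and 10.01 CPM in sgTrp53 + MYC replicates. All tumors lay below all livers (log2 fold change -4.78 ± 0.44 in pooled and -3.32 ± 0.55 in sgTrp53 + MYC tumors).

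Both tested genes of the pi class rose in one comparison or more, and Gstp3 fell in the other. Gstp1 (chr19:4085405-4088068, minus strand), a cytosolic enzyme known as a marker of preneoplastic foci in rodent liver, read 147, 163, 203, 233 and 158 CPM in livers. Tumors read 329.9, 247, 228, 239 and 277 CPM in Aldafermin + MYC, 199, 253, 202, 205 and 236 CPM in FGF19 + MYC and 219.9, 178, 303, 236 and 299 CPM in sgTrp53 + MYC replicates. Tumor and liver ranges overlapped. The increase was small, 0.41 ± 0.14 in the pooled tumors (adjusted p = 0.0146) and 0.45 ± 0.16 in sgTrp53 + MYC tumors (adjusted p = 0.0191), and Gstp1 shares 30.98% of its 50-base words with Gstp2 and a pseudogene. Both calls were lost without liver replicate 1 or replicate 5, at log2 fold changes of 0.33 and 0.35 in the pooled and 0.37 and 0.39 in the sgTrp53 + MYC tumors, and the latter call was also lost without liver replicate 2 (0.40) and without sgTrp53 + MYC replicate 3 (0.37) or replicate 5 (0.38). With FGF19 + MYC tumors alone the increase of Gstp1 was 0.28 and did not pass.

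Gstp3 (chr19:4106035-4109569, minus strand), its neighbor, shares no 50-base word with another gene and moved in opposite directions in the pooled and the sgTrp53 + MYC tumors. It read 46.4, 43.1, 40.7, 65.5 and 45.4 CPM in livers. Values in tumors were 109, 80.3, 99.4, 116 and 156 CPM in Aldafermin + MYC, 46.0, 78.0, 68.7, 57.1 and 72.6 CPM in FGF19 + MYC and 15.1, 15.6, 29.0, 41.4 and 16.8 CPM in sgTrp53 + MYC replicates. All Aldafermin + MYC tumors lay above all livers, FGF19 + MYC tumors overlapped with them, and sgTrp53 + MYC tumors mostly lay below. The log2 fold change against liver was 0.82 ± 0.23 in the pooled tumors (adjusted p = 0.00353) and -1.03 ± 0.26 in sgTrp53 + MYC tumors (adjusted p = 0.00160). With FGF19 + MYC tumors alone the increase was 0.42 and did not pass, and scaled by total counts the decrease in sgTrp53 + MYC tumors was -0.13 and did not pass. Levels per kb were taken over the canonical (reference) transcript, with 685 bases for Gstp3 and 904 for Gstp1. On this scale Gstp3 stood at 56.0% of Gstp1 in Aldafermin + MYC, 38.9% in FGF19 + MYC, 12.6% in sgTrp53 + MYC tumors and 35.2% in liver. Exon bases over all transcripts are 2350 and 1633, and with these the percentages would be lower in every group.

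Gsto1 (chr19:47842686-47853229, plus strand), the omega enzyme that reduces dehydroascorbate and arsenic compounds, read 155, 207, 164, 189.8 and 179 CPM in livers. In the tumor groups it was at 265, 236, 178, 168 and 286 CPM in Aldafermin + MYC, 278, 176, 192, 195 and 167 CPM in FGF19 + MYC and 438, 410.1, 307, 326 and 395 CPM in sgTrp53 + MYC replicates. Every sgTrp53 + MYC tumor lay above every liver and every other tumor. Against liver, the log2 fold change was 1.07 ± 0.17 in sgTrp53 + MYC tumors (adjusted p = 1.84e-05), and 0.26 ± 0.15 in the pooled tumors, which did not pass (adjusted p = 0.128) except under 3 of 33 other settings (scaled by total counts, without the filter on low counts, and without the 3 libraries of highest hepatocyte marker sum). Gsto1 alone was 22.7% of the summed GST level in sgTrp53 + MYC tumors.

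**Figure D3:**
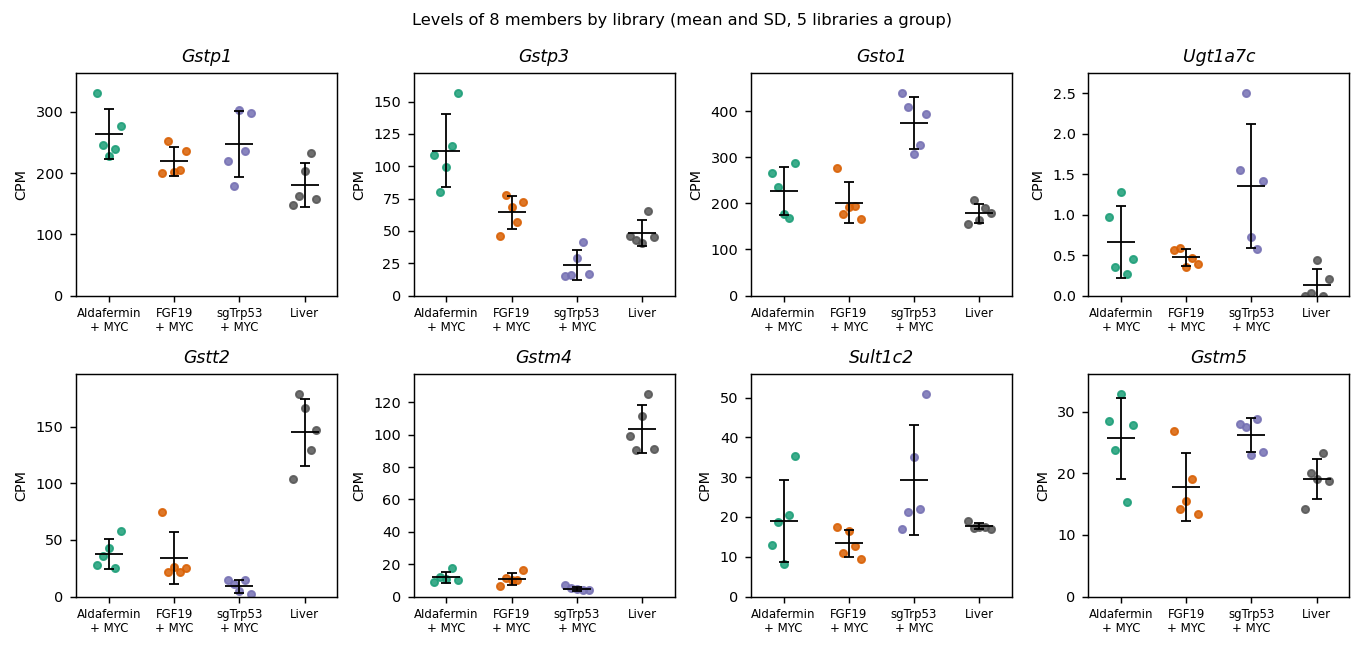
CPM (linear axes from 0) of Gstp1, Gstp3, Gsto1, Ugt1a7c, Gstt2, Gstm4, Sult1c2 and Gstm5 in each library by group, with the mean ± SD. Gsto1 separates sgTrp53 + MYC tumors at 307 CPM or more from the other 15 libraries, and the mean of Gstp3 is lowest in that group.

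SULT genes fell in nearly all cases. Of 11 tested, 0 rose and 10 fell in the pooled tumors (median log2 fold change -5.54), and 0 rose and 9 fell in sgTrp53 + MYC tumors (median -4.30). Sult2a3, Sult2a5, Sult3a1 and Sult5a1 are among the 11 and would not have been tested without liver, so these medians do not rank the families. Without the 3 libraries of highest hepatocyte marker sum, the pooled medians were -6.44 for SULT and -6.46 for UGT genes. These do not rank the families either. The SULT median was over the same 11 genes and was the value of Sult5a1. The UGT median was over 13 genes, without Ugt1a7c and Ugt2b37. Sult1a1 (chr7:126271299-126275615, minus strand), the main phenol sulfotransferase, read 707, 745, 591, 799 and 771 CPM in livers. In tumors, levels were 6.67, 8.0, 5.27, 61.0 and 19.0 CPM in Aldafermin + MYC, 40.5, 29.8, 22.9, 21.6 and 116 CPM in FGF19 + MYC and 86.7, 41.9, 25.0, 16.7 and 13.0 CPM in sgTrp53 + MYC replicates. All tumors lay below all livers, with log2 fold changes of -4.57 ± 0.55 and -4.30 ± 0.72. Sult1b1, which sulfates thyroid hormone, fell by 3.06 and 2.71 on the log2 scale, and Sult1d1, which sulfates catecholamines, by 2.52 and 1.58. Sult1d1 made up 39.1%, 36.3% and 40.7% of the summed SULT level in Aldafermin + MYC, FGF19 + MYC and sgTrp53 + MYC tumors, where Sult1a1 led in liver with 36.2%. Sult1c2 passed neither comparison with liver, at 17.0 to 18.9 CPM in liver and 8.07 to 50.8 CPM in tumors, but was called higher in sgTrp53 + MYC tumors under 10 of 31 other settings.

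The Sult2a genes sulfate hydroxysteroids and bile acids, and their levels varied widely between livers as well. Sult2a1 (chr7:13530171-13571337, minus strand) read 311, 127, 33.7, 38.1 and 154 CPM in livers. The corresponding tumor values were 0.0243, 0.272, 0, 0.230 and 3.42 CPM in Aldafermin + MYC, 1.17, 8.14, 1.66, 1.17 and 39.2 CPM in FGF19 + MYC and 24.2, 32.2, 28.4, 4.57 and 14.96 CPM in sgTrp53 + MYC replicates. All Aldafermin + MYC and all sgTrp53 + MYC tumors lay below the lowest liver. FGF19 + MYC replicate 5, at 39.2 CPM, lay above livers 3 and 4 (33.7 and 38.1 CPM). The log2 fold change was -5.54 ± 0.93 in the pooled tumors (adjusted p = 2.44e-05) and -2.67 ± 1.07 in sgTrp53 + MYC tumors (adjusted p = 0.0326), the latter lost without liver replicate 1 (-2.10) and without sgTrp53 + MYC replicate 1 (-2.73), replicate 4 (-2.41) or replicate 5 (-2.57), scaled by total counts (-1.78) and without the filter on low counts (-2.38). Its transcript shares 27.8% of 50-base words with other Sult2a genes.

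Sult2a8, a bile acid sulfotransferase of mouse liver, had the highest level per kb of canonical transcript in liver among SULT genes after Sult1a1. It read 405, 576, 313, 388 and 1268 CPM in livers, 0.922, 2.48, 0.639, 31.3 and 2.63 CPM in Aldafermin + MYC, 3.18, 5.16, 1.84, 2.11 and 12.7 CPM in FGF19 + MYC and 47.3, 0.934, 13.3, 4.70 and 1.27 CPM in sgTrp53 + MYC replicates. Its log2 fold change was -6.59 ± 0.96 and -5.45 ± 1.23, with no overlap, and liver replicate 5 stood well above the other livers. Sult2a5 had 0 counts in all 5 Aldafermin + MYC tumors and read 4.16, 4.14, 3.57, 3.00 and 5.69 CPM in livers, a liver level at least 48.2-fold higher than a floor of 3 counts per library. FGF19 + MYC replicates were at 0, 0.0364, 0.0896, 0 and 0.737 CPM and sgTrp53 + MYC replicates at 0.181, 0, 0.507, 0.0816 and 0.107 CPM, all below the livers. Sult2a3 (chr7:13801371-13857003, minus strand) read 15.1, 5.75, 2.25, 0.0682 and 5.17 CPM in livers, 0, 0.0248, 0, 0 and 0 CPM in Aldafermin + MYC, 0.111, 0.691, 0, 0.0879 and 2.25 CPM in FGF19 + MYC and 0.691, 3.30, 10.7, 0.0952 and 0.889 CPM in sgTrp53 + MYC replicates. Liver replicate 4 was as low as several tumors. It fell in the pooled tumors (log2 fold change -6.24 ± 1.23, adjusted p = 8.39e-05) and was the Sult2a gene that passed no test in sgTrp53 + MYC tumors (-0.84 ± 1.08, adjusted p = 0.498). Sult3a1, an amine sulfotransferase, went from 22.7 to 97.8 CPM in liver to 0 to 6.64 CPM in tumors, and Sult5a1 from 6.97 to 28.4 to 0 to 2.46 CPM.

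**Figure D4:**
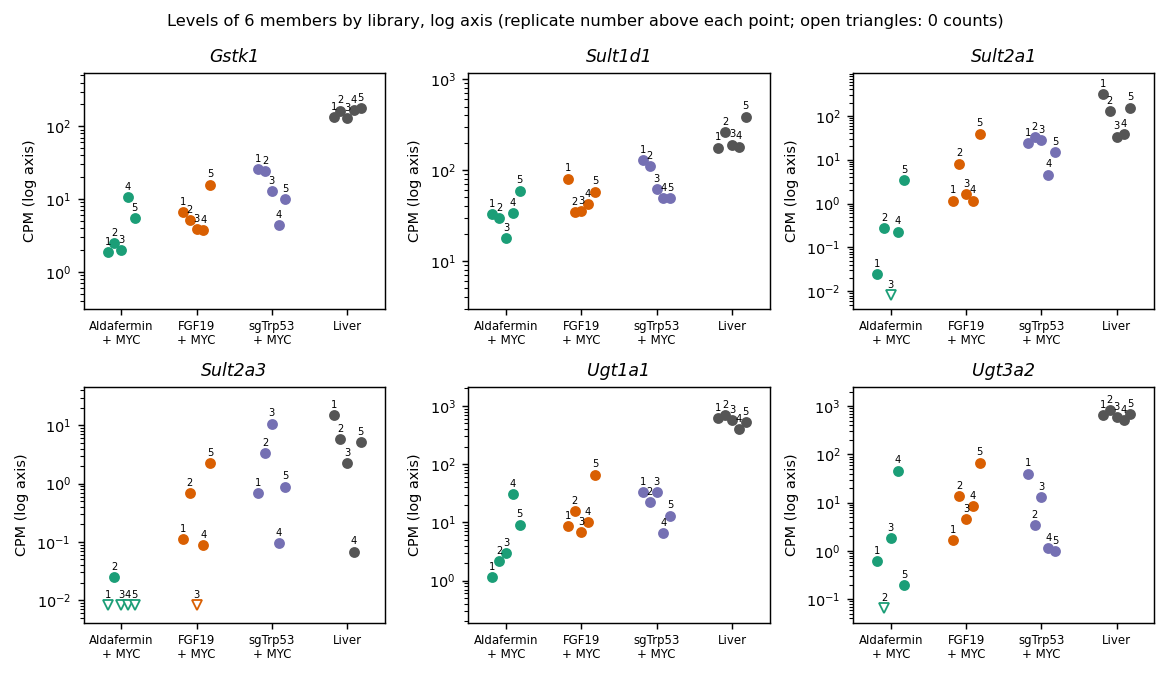
CPM (log axis) of Gstk1, Sult1d1, Sult2a1, Sult2a3, Ugt1a1 and Ugt3a2 in each library, marked with replicate numbers, with open triangles for libraries at 0 counts. Aldafermin + MYC replicate 4 (Ugt3a2 at 46.2 CPM) and FGF19 + MYC replicate 5 (67.2 CPM) stand above the rest of their groups.

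The order of levels between genes also changed. Levels per kb were taken over exon bases of the canonical transcript not shared with an overlapping gene. Counts cover all transcripts of a gene, and the order over exon bases of all transcripts was not examined. Liver was led by Gstm1 at 2341 ± 494 CPM per kb, Gsta3 at 1147 ± 155, Ugt1a1 at 614 ± 125, Sult1a1 at 553 ± 62.0 and Gstz1 at 512 ± 90.2. The last 3 of these lay within each other's spread. Ugt1a1 has 915 such bases out of 3231, so its place depends on whether reads in its common exons were counted, which is not known here. Aldafermin + MYC tumors were led by Gstp1 (292 ± 45.3 CPM per kb) and Gstm1 (289 ± 96.8), and FGF19 + MYC tumors by Gstm1 (302 ± 109) and Gstp1 (242 ± 26.6), with the spreads of each pair overlapping. In sgTrp53 + MYC tumors Gstp1 (274 ± 59.1 CPM per kb), Gsta3 (223 ± 75.4), Gstm1 (200 ± 28.9) and Gsto1 (197 ± 29.6) followed each other within their spread. Gstp1, which led or followed Gstm1 in the tumor groups, was not among the 10 highest in liver. Ugt1a6a was left out of this ranking because its canonical transcript has 95 exon bases of its own.

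By share of the liver mean, 4 of the 45 tested genes were under 2% in the pooled tumors (Sult2a8, Sult3a1, Ugt1a5 and Ugt3a1), 18 between 2% and 10%, 15 between 10% and 30%, and 8 at 30% or more. In sgTrp53 + MYC tumors the numbers were 7, 17, 11 and 10. These shares are on the TMM scale and would be larger without TMM. Sult3a1 and Ugt1a5 would not have been tested without liver. The 8 that kept 30% or more in the pooled tumors were Gsta1, Gsta4, Gstm5, Gsto1, Gstp1, Gstp3, Sult1c2 and Ugt1a7c, and all 8 except Gsta1 were also among the 10 in sgTrp53 + MYC tumors.

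**Figure D5:**
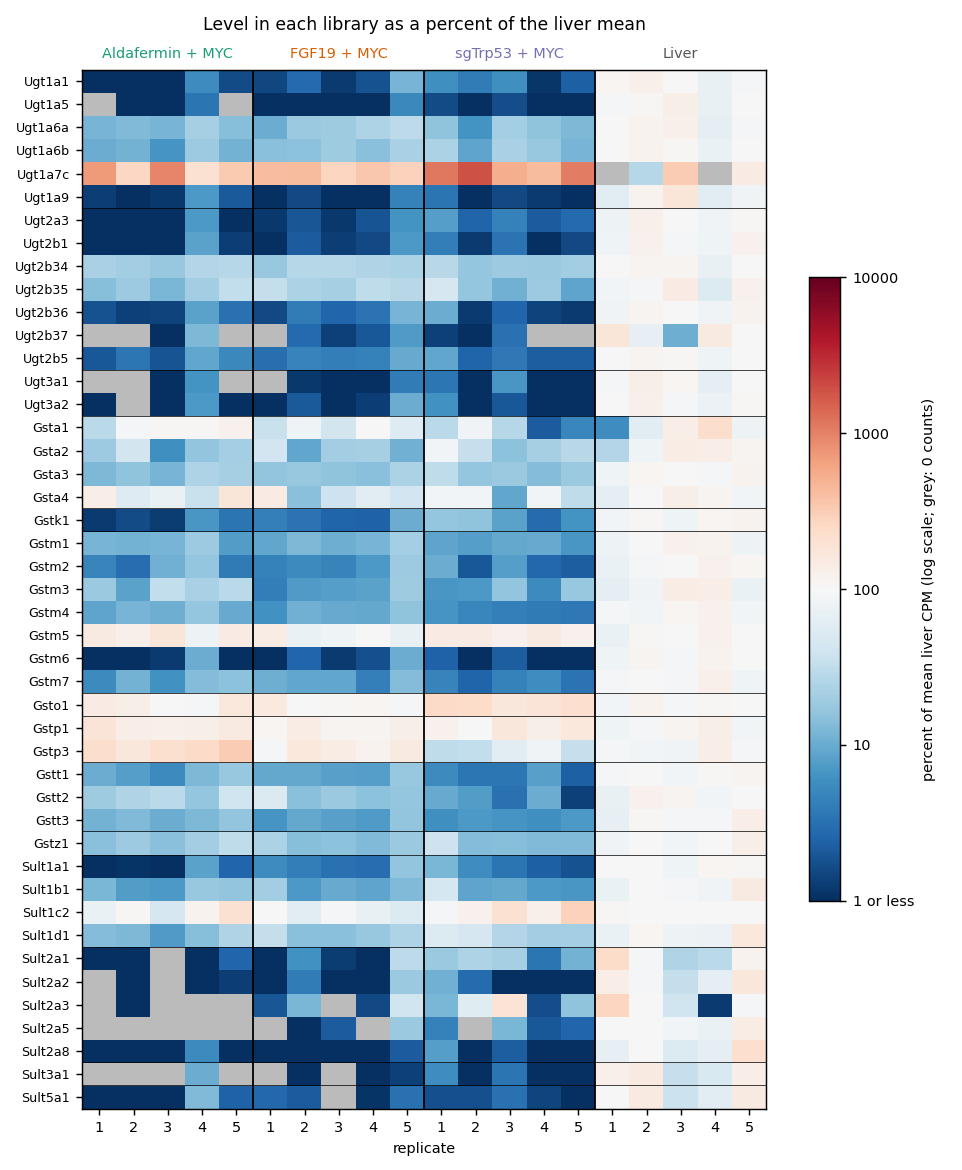
Level of each tested gene in each library as a percent of its liver mean (log colour scale, grey for 0 counts), by superfamily and group. Most UGT and SULT rows are under 10% in the tumor columns, and Aldafermin + MYC replicate 4, FGF19 + MYC replicate 5 and sgTrp53 + MYC replicate 1 stand out within their groups.

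Within each tumor group, the library with the most hepatocyte marker signal also had the most conjugation transcripts. Over the 36 genes that fell in both comparisons, Aldafermin + MYC replicate 4 summed to 2130 CPM against 1132 to 1657 CPM in the other 4 and had the group's highest value in 23 of the genes. FGF19 + MYC replicate 5 summed to 2398 CPM against 1278 to 1430 CPM and was highest in 29, and sgTrp53 + MYC replicate 1 summed to 2261 CPM against 1050 to 1313 CPM and was highest in 23. Livers summed to 12705 to 15790 CPM. With these 3 libraries left out, chosen after seeing the data, 43 genes were tested, and Ugt1a7c and Ugt2b37 no longer were. In the pooled tumors 3 were higher (Gsto1, Gstp1 and Gstp3) and 36 lower. In sgTrp53 + MYC tumors 4 were higher (Gstm5, Gsto1, Gstp1 and Sult1c2) and 36 lower. Whether remaining hepatocytes contribute to these values was not tested.

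The FGF19/Aldafermin + MYC tumors and the sgTrp53 + MYC tumors were then compared directly, which also tests whether their changes from liver differ. Of the 45 genes, 6 were higher in the pooled FGF19/Aldafermin + MYC tumors and 6 lower, 26.7% in all beside 23.7% of all genes tested (11.6% higher and 12.1% lower), so the share was near the background. Every pooled tumor lay above every sgTrp53 + MYC tumor in 2 of the 45 (3.29% of all genes) and below in 1 (2.41%). All 6 higher genes were GSTs (Gstt2, Gstp3, Gstm7, Gstm4, Gstt1 and Gstt3). The 6 lower ones were Sult2a3, Sult2a1, Gstk1, Sult1d1, Sult1c2 and Gsto1, and 0 of 15 UGT genes passed (smallest adjusted p = 0.0664, for Ugt1a7c). With the 3 libraries of highest hepatocyte marker sum left out, 17 of 43 genes differed beside 23.2% of all 14129 genes then tested. The pooled tumors were higher for 6 of these 17 and lower for 11, the latter with Ugt1a1, Ugt1a5, Ugt2a3 and Ugt3a1 among them, and leaving out Aldafermin + MYC replicate 4 alone gave 10 lower.

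All 3 tested theta genes were higher in the pooled tumors. Gstt2 (chr10:75666948-75673258, minus strand), a theta enzyme that acts on sulfate esters, read 28.0, 35.8, 42.5, 24.8 and 57.9 CPM in Aldafermin + MYC, 75.1, 21.5, 26.4, 22.1 and 24.8 CPM in FGF19 + MYC, 14.3, 10.9, 4.60, 14.7 and 1.96 CPM in sgTrp53 + MYC and 104, 179, 167, 129 and 147 CPM in liver replicates. Every pooled tumor lay above every sgTrp53 + MYC tumor, and FGF19 + MYC replicate 1 was far above its group. The log2 difference was 1.94 ± 0.42 (adjusted p = 0.00268), against 1.20 ± 0.29 for Gstt1 (adjusted p = 0.00617) and 0.74 ± 0.19 for Gstt3 (adjusted p = 0.00874). With FGF19 + MYC tumors alone the Gstt3 difference was 0.54 and did not pass. Gstp3 differed by 1.85 ± 0.24 (adjusted p = 4.57e-05), Gstm7 by 1.26 ± 0.28 (adjusted p = 0.00309) and Gstm4 by 1.24 ± 0.21 (adjusted p = 0.000345). In all but Gstp3 the pooled tumors stood between sgTrp53 + MYC tumors and liver.

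In the other direction Gsto1 differed by -0.81 ± 0.14 (adjusted p = 0.000609), without overlap. Gstk1 differed by -1.47 ± 0.42 (adjusted p = 0.0174), Sult1d1 by -0.94 ± 0.29 (adjusted p = 0.0241) and Sult1c2 by -0.87 ± 0.27 (adjusted p = 0.0257). Sult2a1 differed by -2.87 ± 0.87 (adjusted p = 0.0228) and Sult2a3 by -5.40 ± 1.24 (adjusted p = 0.00274), with the Aldafermin + MYC tumors at 3.42 CPM or less in both. With FGF19 + MYC tumors alone 2 of the 6 lower calls were left, and Sult2a1 (-1.02), Sult2a3 (-2.30), Sult1d1 (-0.67) and Gstk1 (-1.14) did not pass. The Gstk1 and Sult1d1 calls were each lost without sgTrp53 + MYC replicate 1 (-1.21 and -0.70) or replicate 2 (-1.25 and -0.79), and the Sult1c2 call without replicate 3 (-0.80) or replicate 5 (-0.58), with Aldafermin + MYC tumors alone (-0.62) and in a fit of the pooled and sgTrp53 + MYC tumors without liver (-0.88). The Sult1d1 call was also lost without the 3 libraries of highest hepatocyte marker sum (-0.72). sgTrp53 + MYC replicate 2 is the library with high cholangiocyte markers, whose part in these values was not tested beyond leaving it out.

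No gene of these families passed the test between tumors with FGF19 and tumors with its analog. Aldafermin + MYC against FGF19 + MYC tumors gave 0 calls among the 45 genes and 0 among all 14333 (edgeR quasi-likelihood test, 0% of genes tested), with 8 of the 45 and 1048 of all genes at an unadjusted p under 0.05. The 8 were Gstm3, Gstm5, Gstp3, Sult2a1, Sult2a2, Sult2a3, Sult2a5 and Ugt1a6b, and 22 of the 45 were higher with Aldafermin. The smallest p-values were those of Sult2a3 (0.00382), Sult2a1 (0.00553) and Gstp3 (0.00583). Gstp3 differed by 0.80 ± 0.26 (adjusted p = 0.390), with all Aldafermin + MYC tumors (80.3 CPM or more) just above all FGF19 + MYC tumors (78.0 CPM or less). Such a separation was seen in 1 of the 45 genes and in 1.07% of all genes tested. Sult2a1 differed by -3.71 ± 1.19 (adjusted p = 0.379), with 4 of 5 Aldafermin + MYC tumors under 0.3 CPM and no FGF19 + MYC tumor under 1 CPM. DESeq2 and edgeR's likelihood ratio test each called 2 of the 45, Sult2a3 and Sult2a5, beside 96 (0.67%) and 59 (0.412%) of all genes. Neither gene would have been tested without the livers, which are not part of this comparison. Each Aldafermin + MYC tumor had at most 1 count of either gene. FGF19 + MYC replicate 5 had 64 counts of Sult2a3 and 21 of Sult2a5, and the rest of its group at most 19 and 2. The SE of the difference, worked back from the test itself, was far smaller for abundant genes such as Gstm1 (-0.06 ± 0.24) and Gsta3 (-0.03 ± 0.23) than for Sult2a2 (-3.56 ± 1.32).

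The enzymes that supply the reactions included genes that rose and genes that fell, in lists set up with earlier results of these data known. Of all genes tested against liver, 39.2% rose and 34.5% fell in the pooled tumors, 73.7% together. For sgTrp53 + MYC tumors the shares were 36.9% and 33.0%, 69.9% together. The lists here and in the paragraphs that follow are short, and whether their counts depart from these shares was not tested. Of 5 genes of UDP-glucuronic acid supply and glucuronide cleavage, 1 rose and 4 fell in each comparison with liver. Gusb, the lysosomal glucuronidase, rose by 1.93 ± 0.13 and 1.22 ± 0.14, while Ugp2, which makes UDP-glucose, changed by -2.50 ± 0.19 and -1.93 ± 0.23 and Slc35d1, a UDP-sugar transporter, by -1.08 ± 0.12 and -1.64 ± 0.15. Values are log2 fold changes in the pooled and the sgTrp53 + MYC tumors, in that order. Of 10 genes of glutathione synthesis and turnover, 2 rose and 6 fell in the pooled tumors and 2 rose and 7 fell in sgTrp53 + MYC tumors. Ggt1, the glutamyltransferase that cleaves extracellular glutathione and its conjugates, was at 0.278 ± 0.130 CPM in liver and 207 ± 48.0, 212 ± 15.95 and 201 ± 38.3 CPM in the tumor groups. Gsr, which restores reduced glutathione, rose by 1.43 ± 0.13 and 1.47 ± 0.15, and the oxoprolinase Oplah fell by 4.13 and 2.97.

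Of 7 genes of sulfate uptake, activation and removal, 2 rose and 4 fell in each comparison. Papss2, which makes the sulfate donor PAPS, went from 516 ± 89.1 CPM in liver to 31.3, 35.5 and 46.3 CPM, and Sumf1 and Sts also fell. Of 18 tested genes of other conjugation and hydrolysis reactions, 1 rose and 17 fell in the pooled tumors and 1 rose and 16 fell in sgTrp53 + MYC tumors. Ephx2, an epoxide hydrolase, changed by -4.06 ± 0.18 and -3.54 ± 0.24, and Tpmt, a thiopurine methyltransferase, by -1.71 ± 0.14 and -2.25 ± 0.17. The gene that rose, chosen for mention after its values were seen, was the microsomal Mgst2, at 0.0705 CPM in liver and 12.3, 16.6 and 24.9 CPM in the tumor groups.

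Of 7 exporters of conjugates, 4 rose and 3 fell in each comparison. Abcc1, Abcc4 and Abcc5, basolateral pumps, and Abcg2 rose, and Abcc2, the canalicular pump for bilirubin glucuronide, fell with Abcc3 and Abcc6. Abcc1 went from 3.28 ± 0.473 CPM in liver to 23.6, 26.6 and 27.6 CPM, and Abcc6 changed by -2.88 ± 0.21 and -3.47 ± 0.27. Of 13 transcription factors, cofactors and partner enzymes of these pathways, 0 rose and 11 fell in the pooled tumors and 0 rose and 10 fell in sgTrp53 + MYC tumors. Nr1h4, the bile acid receptor FXR, changed by -2.31 ± 0.16 and -1.41 ± 0.19, Por, the cytochrome P450 reductase, by -2.44 ± 0.17 and -2.57 ± 0.22, and Cebpa by -2.23 ± 0.17 and -1.87 ± 0.21.

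Markers of other cells were tested too. Against liver, 73.7% of all genes tested passed in the pooled tumors (39.2% up and 34.5% down). In sgTrp53 + MYC tumors the share was 69.9% (36.9% up and 33.0% down). The marker lists are short, and whether their counts depart from these shares was not tested. In the pooled tumors against liver, 0 of 5 tested cholangiocyte markers rose and 3 fell, and of 6 tested in each of the next lists, 0 endothelial markers rose and 3 fell, 1 stellate cell and fibroblast marker rose and 3 fell, and 1 Kupffer cell and macrophage marker rose and 3 fell. In sgTrp53 + MYC tumors the counts were 1 and 0, 0 and 4, 1 and 3, and 1 and 5. All 7 pericentral and all 7 periportal hepatocyte markers fell in both comparisons, and 0 red cell markers rose while 3 and 4 of 5 fell. The 1 tested marker of T, NK and B cells passed neither test. In the tumors, summed levels were 1.81 to 776 CPM for cholangiocyte, 51.8 to 177 CPM for endothelial, 61.8 to 979 CPM for stellate cell and fibroblast and 66.8 to 412 CPM for Kupffer cell and macrophage markers. Their part in the values of the UGT, GST and SULT genes was not tested.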

How the data were processed

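The authors made stranded mRNA libraries (TruSeq, paired end reads), demultiplexed them with bcl2fastq 2.20.0.422, aligned them with HISAT2 to mm39 and counted reads per RefSeq gene with htseq-count, with counting mode and strand setting not given in the sources used here. The deposited values are raw counts without normalization in 2 tables, and 5 summary lines per table and 0 unassigned columns were left out. Groups came from the sample titles. Differential expression used edgeR 4.0.16 in R 4.3.3 (TMM, 1 CPM in at least 5 libraries, one model of 4 groups, robust quasi-likelihood test, Benjamini-Hochberg adjustment, threshold 0.05, two-sided) and limma 3.58.1. The SE of a log2 fold change was worked back from the test, as its unshrunken absolute value over the square root of the test statistic. Very large SE values were left out. DESeq2 1.42.0 was an alternative, and the fit was tested on simulated data. Levels per kb used the exon bases of each gene's Ensembl canonical transcript in GENCODE M39 (GRCm39) that no overlapping gene on the same strand shares. Python 3.11.15 with pandas 2.3.3 read RefSeq promoter windows (GRCm38.p6), a separate build.

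Replicates of a group differed beyond sampling noise, with a chi-square of at least 15.5 per degree of freedom. Depth was 18004977 to 66354724 counts per library, and a floor of 3 counts per library covers counting error only. The genes, lists and tests were chosen with earlier results of these data known. Values in every library were given for part of the leading genes of each family, those with the largest changes in each comparison and those at the floor, with ranges or means for the rest, and genes of the other lists with the smallest p in the pooled tumors against liver were named (at most 3 a list). Some genes and other motifs searched are not reported here. Alternatives included other scalings, filters and tests, either hormone group alone and each library left out.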

Additional observations from a re-analysis of the deposited data

Results flagged for a closer look

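A library stood apart from the rest of its group in 34 of 126 groups of 5 libraries, judged by the gap to the nearest value over the range of the group. For independent, normally distributed values, chance would give about 1 in 20 (6.3 of the 126). CPM were not log transformed, and the same libraries recur over genes partly chosen for large changes. The excess over 6.3 was therefore not tested. These 126 groups cover 32 of the genes, and all 34 values were the highest of their group. In Aldafermin + MYC replicate 4 there were 11, namely Sult1a1 61.0 CPM, Ugt3a2 46.2 CPM, Sult2a8 31.3 CPM, Ugt1a1 30.8 CPM, Ugt2a3 28.5 CPM, Gstm6 13.9 CPM, Sult3a1 6.64 CPM, Ugt1a5 4.91 CPM, Ugt3a1 4.76 CPM, Sult5a1 2.46 CPM and Ugt2b37 1.69 CPM. In FGF19 + MYC replicate 5 there were 13, namely Sult1a1 116 CPM, Gstt1 98.4 CPM, Ugt2b5 78.3 CPM, Ugt3a2 67.2 CPM, Ugt1a1 66.0 CPM, Sult2a1 39.2 CPM, Sult2a2 29.1 CPM, Ugt2a3 25.4 CPM, Gstk1 15.8 CPM, Gstm6 13.9 CPM, Ugt1a5 7.12 CPM, Sult3a1 0.877 CPM and Sult2a5 0.737 CPM. In sgTrp53 + MYC replicate 1 there were 5, namely Gsta3 514 CPM, Gstz1 437 CPM, Ugt2b5 73.9 CPM, Sult2a8 47.3 CPM and Sult2a2 17.7 CPM. These 3 libraries also had the highest hepatocyte marker sums of their groups, whose part in the values was not tested. The other 5 were Gsto1 278 CPM and Gstt2 75.1 CPM in FGF19 + MYC replicate 1, Sult2a1 3.42 CPM in Aldafermin + MYC replicate 5, Gstp3 65.5 CPM in liver replicate 4 and Sult2a8 1270 CPM in liver replicate 5.

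The log2 change from liver differed between the pooled FGF19/Aldafermin + MYC tumors and the sgTrp53 + MYC tumors in 12 genes (edgeR quasi-likelihood test of the difference, adjusted over all genes). The difference was 1.94 for Gstt2, 1.85 for Gstp3, 1.26 for Gstm7, 1.24 for Gstm4, 1.20 for Gstt1, 0.74 for Gstt3, in which the pooled tumors were higher, and -0.81 for Gsto1, -0.87 for Sult1c2, -0.94 for Sult1d1, -1.47 for Gstk1, -2.87 for Sult2a1 and -5.40 for Sult2a3, in which they were lower. The sgTrp53 + MYC libraries have a table of their own, so table and group cannot be told apart.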

How the results depend on the processing

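No log2 fold change that passed a test changed sign under any alternative run. Scaling by total counts moved the median of all genes to 0.94 in the pooled tumors and 0.95 in sgTrp53 + MYC tumors against liver, and changes are relative to these medians. The count of genes higher in the pooled tumors than in liver, 3, became 6 under this scaling (adding Gstm5, Gsto1 and Sult1c2), and 1 with FGF19 + MYC tumors alone or with an absolute log2 fold change of at least 1. Higher genes in sgTrp53 + MYC tumors, 3, became 5 with total counts, without a filter on low counts (59 genes tested) and with the compared groups alone. Genes lower than in sgTrp53 + MYC tumors, 6, became 2 with FGF19 + MYC alone, 3 with an absolute log2 fold change of at least 1, and 11 without the 3 libraries of highest hepatocyte marker sum (chosen after seeing the data). Calls between Aldafermin + MYC and FGF19 + MYC, 0, became 2 with DESeq2 and with the likelihood ratio test. The causes were not tested.

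Leaving out each library in turn gave 2 to 3 higher and 36 to 37 lower genes in the pooled tumors, 1 to 5 higher and 35 to 38 lower in sgTrp53 + MYC tumors, and 6 to 7 higher and 4 to 10 lower between the tumor types. Higher genes in sgTrp53 + MYC tumors were 5 without Aldafermin + MYC replicate 5 and 1 without sgTrp53 + MYC replicate 5. Gsta1 and Gsta2 in sgTrp53 + MYC tumors lost their calls without some single libraries. Replicate numbers did not pair the samples, since the correlation of same-numbered deviations was -0.28 to 0.48 and over 0.1 in 7 of 30 pairs. With the replicate number as a block, Gsta1 in sgTrp53 + MYC tumors lost its call (-1.63), leaving 37 lower genes there, and the other 95 of 96 calls and differences followed were on the same side of the threshold.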
